A study of Mus with 18 samples.

Results

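The genes described here encode the constitutive proteasome, the subunits that cells carry whether or not they are stimulated. They were taken from the table of counts by name: rows named Psma, Psmb, Psmc or Psmd followed by a number, without the inducible catalytic genes Psmb8, Psmb9 and Psmb10 and the thymus gene Psmb11, and with a summed count of at least 180 over all libraries. This gave 34 genes of 54532 in the table, 14 of the core particle (Psma and Psmb) and 20 of the regulatory cap (Psmc and Psmd). The smallest member, Psmd9, had 6730 counts in all, and the gene left out by the minimum, the testis form Psma8, had 0.

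The proteasome is a barrel of stacked rings that degrades proteins marked with ubiquitin. The outer rings are built of alpha subunits and gate the entry, and the inner rings of beta subunits hold the proteolytic sites. The cap binds ubiquitin, removes it and uses a ring of ATPases to unfold the protein and feed it into the barrel. In macrophages stimulated with interferon or microbial products, Psmb8, Psmb9 and Psmb10 can replace Psmb5, Psmb6 and Psmb7 in newly built particles, which are then called immunoproteasomes and produce peptides for MHC class I.

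The cells were RAW264.7, a mouse macrophage-like line, treated for 6 h. Each of 6 groups had 3 libraries. LPS+CGACys, LPS+CACys, LPS+CGA and LPS+CA received 1 µg/mL of bacterial lipopolysaccharide (LPS) together with 100 µM of the cysteine adduct of chlorogenic acid, the cysteine adduct of caffeic acid, chlorogenic acid or caffeic acid. LPS received 1 µg/mL LPS with no compound, and Control received none of these. Chlorogenic acid is the ester of caffeic acid with quinic acid, and each adduct carries a cysteine added to the parent acid. The compound groups all contain LPS, so a compound's effect without LPS was not analysed here, and the labels name no vehicle.

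Libraries held 16105817 to 25624935 counts. The members took 0.514 to 0.736% of each library's counts. The 8 macrophage markers summed to 4198 to 6036 CPM (counts scaled to a common library size) in every library. By group the sum was 4198 to 4327 CPM in LPS+CGACys, 4627 to 4728 in LPS+CACys and 5107 to 5179 in LPS+CGA. It was 4715 to 4924 CPM in LPS+CA, 5292 to 5506 in LPS and 5838 to 6036 in Control. Single markers went both ways. Lyz2 had means of 776 CPM in LPS and 2028 CPM in Control, and Adgre1 of 370 and 35.5 CPM. Summed lymphocyte markers reached at most 0.745 CPM and epithelial markers at most 0.221 CPM. Summed fibroblast markers ran from 6.65 to 6.88 CPM in LPS+CGACys, 4.63 to 6.08 CPM in LPS+CACys, 3.26 to 4.11 CPM in LPS+CGA, 3.19 to 3.81 CPM in LPS+CA, 4.42 to 5.03 CPM in LPS and 1.28 to 1.88 CPM in Control. Most of each sum was Pdgfra, with means of 5.62, 4.56, 3.05, 2.58, 3.66 and 1.53 CPM in the same order of groups. Dcn had means of 0.67 to 0.96 CPM in the groups with LPS and 0 in Control. Col1a1 and Col1a2 had means of at most 0.19 CPM, and Col3a1 was at 0 in every library. The part of these markers in the results was not tested.

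LPS+CA replicate 2 stood apart from its fellows. In it 32 of 34 members lay above the mean of the other LPS+CA libraries, 29 were the highest of the group, and the median member was 0.24 higher on the log2 scale. The share of all genes that did so was not computed. The members took 0.736% of the counts of LPS+CA replicate 2, against 0.659 and 0.637% in LPS+CA replicates 1 and 3. Genes of cytosolic ribosomal proteins took 5.14% of its counts, against 4.34% in both of the others. The counts of called members in comparisons that involve LPS+CA are therefore also given without this library, an alternative added after the data were seen. The summed CPM of the core genes had an SD of 310 in LPS+CA and of 24.4 to 76.4 in the other groups. The model shares 1 estimate of spread per gene over all groups. Its p-values for comparisons with LPS+CA may therefore understate the spread in that group.

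In LPS compared with Control, 29 of the 34 members rose, Psma1 fell, and Psmb1, Psmc3, Psmd13 and Psmd9 were not called. A gene was called at a Benjamini-Hochberg adjusted p of 0.05 or less in the edgeR quasi-likelihood test over 13251 genes. Over all those genes 62.2% were called in this comparison, 30.6% higher and 31.6% lower. In 30 members every LPS library lay above every Control library and in 2 every one lay below, where 33.5% and 35.1% of all genes did so. The median log2 fold change was 0.44 over the members and -0.02 over all genes tested. In libraries of bulk RNA, a larger amount per cell and a different mix of cells cannot be told apart.

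**Figure D1:**
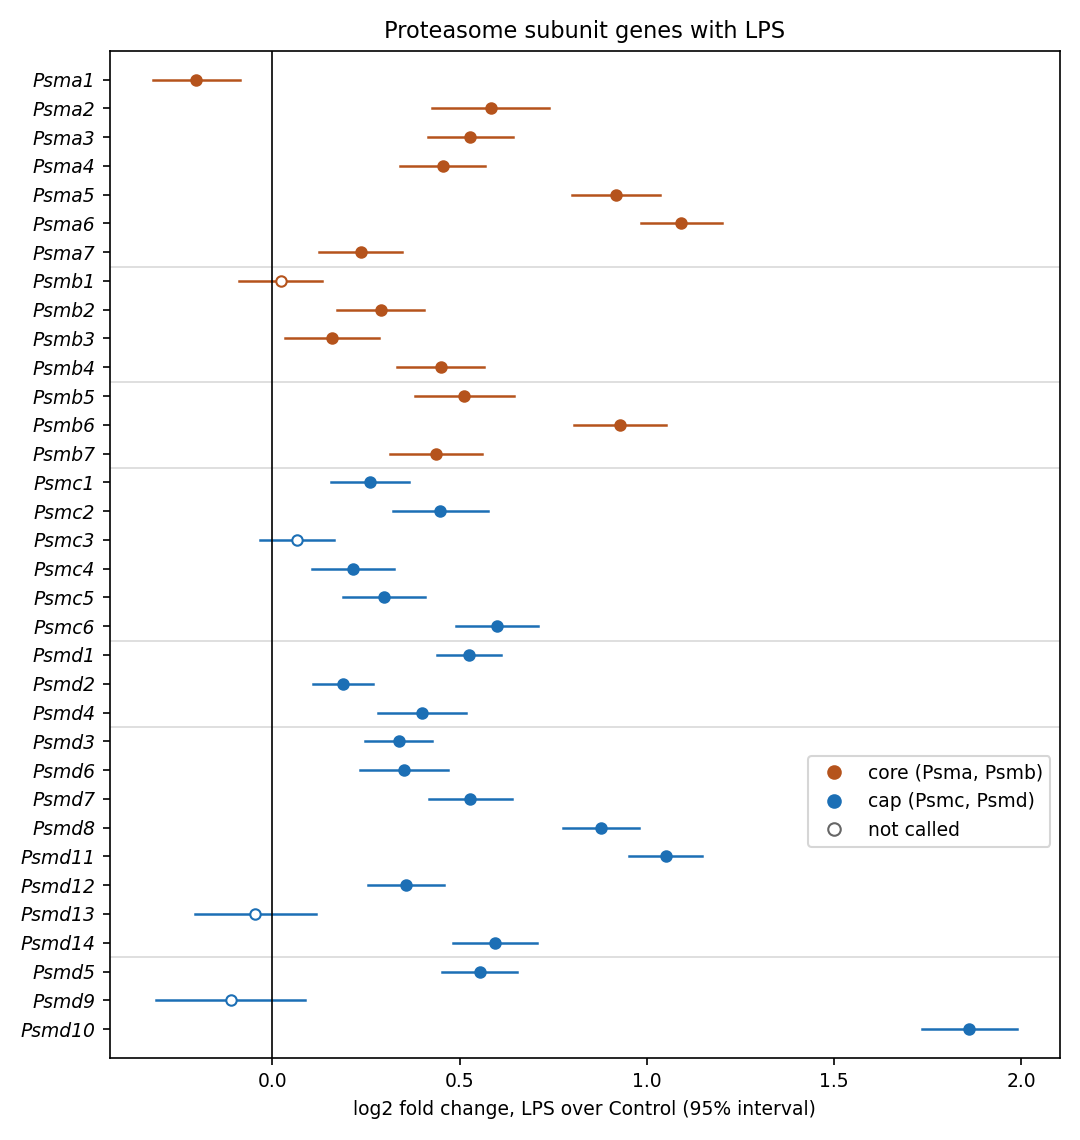
Log2 fold change of each constitutive proteasome gene in LPS over Control, with 95% intervals, by the role of the subunit. The points run from -0.20 for Psma1 to 1.86 for Psmd10, and 31 of 34 lie above 0. Without scaling factors for composition, Psmb1, Psmb3, Psmc3, Psmc4 and Psmd2 change sign.

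The alpha ring had the only member that fell. Psma6 had 258, 259.9 and 253 CPM in LPS libraries, against 125, 119.7 and 117 CPM in Control libraries. The groups did not overlap, and the log2 fold change was 1.09 (SE 0.05, 2.13-fold, adjusted p = 4.68e-17). Psma5, on chromosome 3, had 222, 222 and 216 CPM in LPS and 119, 115 and 116 CPM in Control. Its log2 fold change was 0.92 (SE 0.06, adjusted p = 1.74e-14). Psma2, Psma3, Psma4 and Psma7 rose by log2 values of 0.58, 0.53, 0.46 and 0.24. Psma1 had 172, 178 and 181 CPM in LPS and 206, 205 and 200 CPM in Control, so the groups did not overlap in the other direction (log2 fold change -0.20, SE 0.06, adjusted p = 0.00265).

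All 3 catalytic genes of the beta ring rose. Psmb6, which encodes the caspase-like subunit and lies on chromosome 11, had 408, 419 and 405 CPM in LPS, against 224, 213 and 209.9 CPM in Control (log2 fold change 0.93, SE 0.06, adjusted p = 1.24e-13). Psmb5, the chymotrypsin-like subunit, had 130.5, 130.2 and 133 CPM in LPS, against 97.7, 89.1 and 88.9 CPM in Control (0.51, SE 0.06, adjusted p = 8.05e-08). Psmb7, the trypsin-like subunit, had 116, 112 and 110.4 CPM in LPS, against 83.7, 85.3 and 81.7 CPM in Control (0.44, SE 0.06, adjusted p = 2.38e-07). In none of the 3 genes did LPS and Control overlap. Of the 4 beta genes without a catalytic site, Psmb4, Psmb2 and Psmb3 rose by 0.45, 0.29 and 0.16, and Psmb1 had a log2 fold change of 0.02 (SE 0.05, adjusted p = 0.732).

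In the cap, 5 of the 6 ATPase genes rose, led by Psmc6 at a log2 fold change of 0.60. With library totals alone 2 rose and Psmc3 fell. Psmc3 had 132, 137 and 133 CPM in LPS and 129.6, 129 and 126 CPM in Control (0.07, adjusted p = 0.247). The 3 non-ATPase genes of the cap's base also rose: Psmd1 by 0.52, the ubiquitin receptor gene Psmd4 by 0.40 and Psmd2 by 0.19. In the lid, which carries the deubiquitinase Psmd14, 7 of 8 genes rose. Psmd11, a scaffold subunit of the lid, had 313, 313 and 323 CPM in LPS, against 165, 149 and 144.5 CPM in Control (1.05, SE 0.05, 2.07-fold, adjusted p = 9.73e-18). Psmd8 rose by 0.88, Psmd14 by 0.59 and Psmd7 by 0.53, and Psmd13 was at -0.04 (adjusted p = 0.643).

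The 3 genes of the chaperones that help assemble the ATPase ring, which carry Psmd names but leave the finished particle, went apart. Psmd10, also called gankyrin, had 102, 109 and 109.5 CPM in LPS, against 29.9, 30.1 and 28.1 CPM in Control. Its log2 fold change of 1.86 (SE 0.06, 3.63-fold, adjusted p = 5.98e-21) was the largest of the 34 members. Psmd5 rose by 0.55, and Psmd9, the member with the fewest counts, was at -0.11 (adjusted p = 0.335). Psmd10 lies on the X chromosome (140948425 to 140956711, GRCm38.p6), Psma6 on chromosome 12 (55384222 to 55418459) and Psmd11 on chromosome 11 (80428615 to 80473248).

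The size of the LPS result depends on the scaling. The factors for library composition were 0.964 to 0.983 in LPS and 1.13 to 1.15 in Control. With library totals alone, an alternative added after the data were seen, the median of all genes was -0.25 and that of the members 0.21, and 26 members were called, 21 higher and 5 lower. Of all genes 67.2% were then called, 19.1% higher and 48.1% lower. The members' median lay 0.46 above that of all genes under each of the 4 scalings tried. A change of factors shifts all genes nearly alike, so this difference could not move and tests nothing. The sign of Psmb1, Psmb3, Psmc3, Psmc4 and Psmd2 changed with library totals alone, and that of Psmb1 and Psmc3 also with upper-quartile factors. For Psmd10, Psma6, Psmd11, Psmb6, Psma5, Psmb5 and Psmb7 the rise was called in all 14 alternatives.

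**Figure D2:**
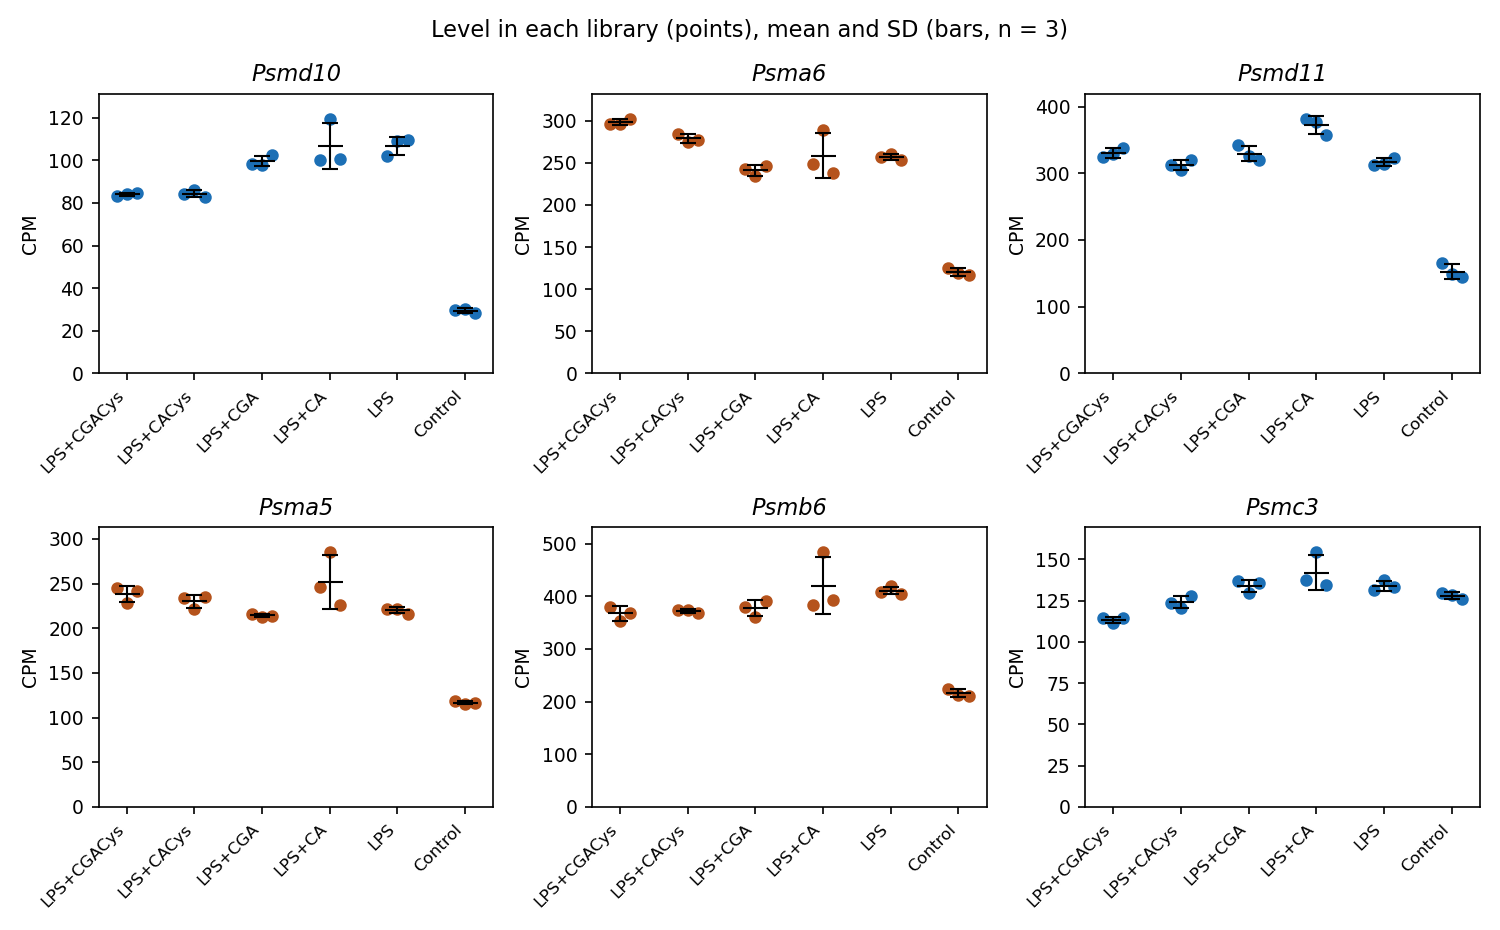
CPM (vertical axis) of 6 members in each library (points, core genes in orange and cap genes in blue), with the mean and SD of 3 libraries as bars, groups from LPS+CGACys on the left to Control on the right. Psmd10 and Psma6 are far higher in every LPS-treated group than in Control, and Psmd10 is lower in LPS+CGACys and LPS+CACys than in LPS.

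The 34 genes lie on 15 chromosomes. The nearest pair, Psmb4 and Psmd4 on chromosome 3, are 145730 bp apart and had log2 fold changes of 0.45 and 0.40 in LPS over Control. The next, Psmb3 and Psmd3 on chromosome 11, are 969054 bp apart and had 0.16 and 0.34. Over the 6 groups, 29 members had their lowest mean in Control, and 29 had their highest mean in LPS+CA. With LPS+CA replicate 2 left out, 19 had their highest mean in LPS+CA, and 29 had their lowest in Control. The order of group means was not computed over all genes, so whether these counts are unusual was not tested.

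The sums of the core and of the cap genes were both higher in every LPS library than in every Control library. The core genes summed to 2687 ± 24.4 CPM in LPS and 1924 ± 53.6 CPM in Control, and the cap genes to 3696 ± 66.8 CPM in LPS and 2650 ± 49.8 CPM in Control (SD, n = 3). The ratio of the core sum to the cap sum was 0.727 ± 0.0139 in LPS and 0.726 ± 0.00685 in Control. The median log2 fold change was 0.45 over 14 core genes and 0.38 over 20 cap genes, a difference of 0.073, which fell to 0.024 without LPS replicate 1 and to 0.003 as the log2 ratio of the sums. The SD of this difference between libraries of a group was 0.030.

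With the compounds the core-to-cap ratio was 0.749 ± 0.0106 in LPS+CGACys, 0.735 ± 0.0099 in LPS+CACys, 0.703 ± 0.0103 in LPS+CGA and 0.723 ± 0.0314 in LPS+CA, against 0.727 ± 0.0139 in LPS. In LPS+CGA the ratio was 0.704, 0.692 and 0.713, below each of 0.742, 0.725 and 0.715 in LPS. In LPS+CGACys it was 0.759, 0.738 and 0.749, which overlapped LPS and lay above every LPS+CGA library. LPS+CA replicate 2 had 0.759, against 0.705 in both of its fellows. The differences of the medians were 0.004 in LPS+CGACys, 0.003 in LPS+CACys, -0.047 in LPS+CGA and -0.003 in LPS+CA over LPS.

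**Figure D3:**
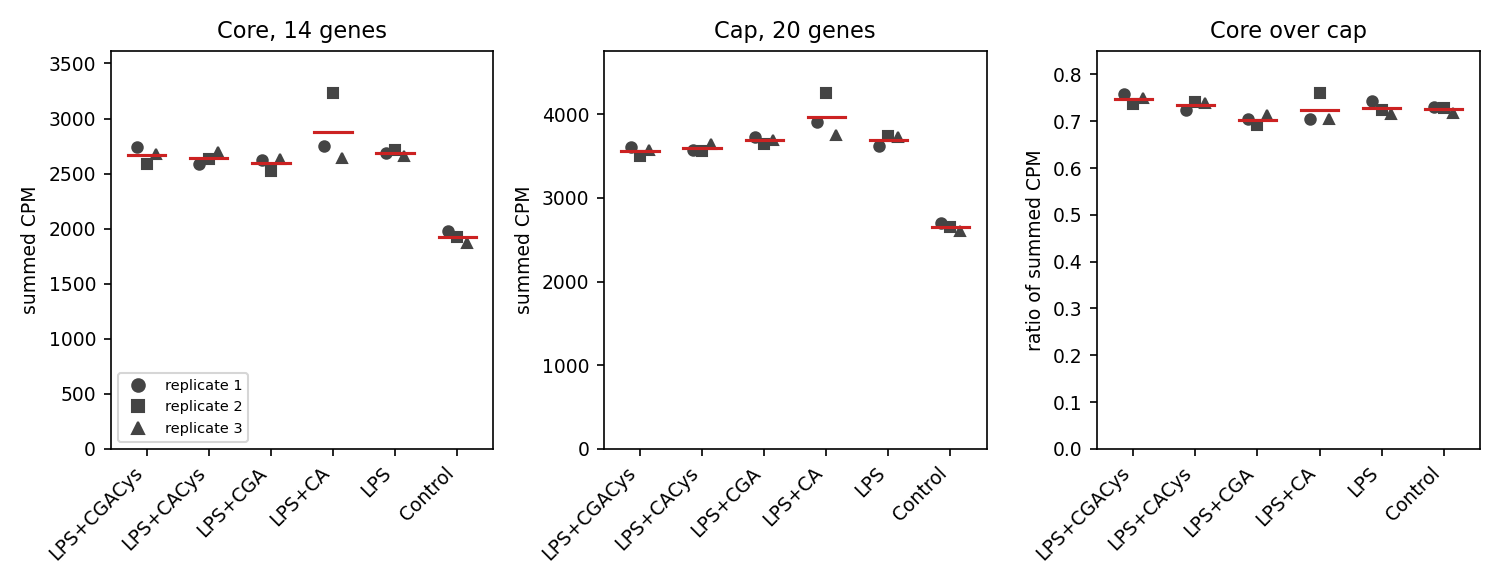
Summed CPM of the core genes and of the cap genes, and their ratio, in each library (points by replicate) with the group mean as a red line. The sums are lowest in Control and highest in LPS+CA replicate 2, and the mean ratio is lowest in LPS+CGA, at 0.703.

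The remaining comparisons ask what each compound changed in cells that also received LPS. They share the 3 LPS libraries, so their values are given side by side and not as independent results. None moved a member by as much as 2-fold.

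In LPS+CA compared with LPS, 6 of 34 members rose and none fell, where 7.72% of all genes were called 2.3% higher and 5.42% lower. In 9 members LPS+CA lay wholly above LPS and in 0 wholly below, where 9.23% and 10.9% of all genes did so. These were 9 and 4 members without LPS+CA replicate 2, where 15% and 16.4% of all genes did so. The 6 were the chaperone gene Psmd5, the lid genes Psmd11 and Psmd7, the core genes Psma5 and Psmb1, and the ATPase gene Psmc1. All 34 log2 fold changes were above 0, with a median of 0.10, against 0.01 over all genes. Without LPS+CA replicate 2 the median was 0.03, 23 of 34 were above 0, and only Psmd5 and Psmd11 were called, where 6.51% of all genes were called. Only 2 members were called also without LPS replicate 1, where 4.72% of all genes were, or without LPS replicate 2, where 3.98% were. Without LPS+CA replicate 3 there were 12, where 10.6% of all genes were called.

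Psmd5 had 107, 106 and 98.2 CPM in LPS+CA, against 84.1, 82.6 and 88.0 CPM in LPS. The groups did not overlap, and the log2 fold change was 0.29 (SE 0.05, adjusted p = 0.00019) with all libraries and 0.28 (adjusted p = 0.000191) without LPS+CA replicate 2. Psmd11 had 381, 377 and 357 CPM in LPS+CA, against 313, 313 and 323 CPM in LPS. Its log2 fold change was 0.23 (SE 0.05, adjusted p = 0.00133), and 0.22 (adjusted p = 0.000774) without that library. In both genes LPS+CA replicate 2 was not the highest of its group, and both were called in all 14 alternatives.

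The other 4 calls were lost without that library, and also in a model of only LPS+CA and LPS. Psmd7, the lid partner of Psmd14, had 273, 303 and 246 CPM in LPS+CA and 234, 240.5 and 241 CPM in LPS. Its log2 fold change was 0.20 (SE 0.05, adjusted p = 0.0168), and 0.12 (adjusted p = 0.0978) without replicate 2. Psma5 had 246, 285 and 226 CPM in LPS+CA and 222, 222 and 216 CPM in LPS, with 0.20 (SE 0.06, adjusted p = 0.024), and 0.10 (adjusted p = 0.186) without replicate 2. Psmb1 had 182, 213 and 182 CPM in LPS+CA and 165, 169 and 172 CPM in LPS, with 0.19 (SE 0.05, adjusted p = 0.0277), and 0.11 (adjusted p = 0.187) without replicate 2. In each of these genes replicate 2 was the highest library. The catalytic genes were not called: Psmb5 had 0.16 (adjusted p = 0.142), Psmb6 0.03 (adjusted p = 0.805) and Psmb7 0.03 (adjusted p = 0.844). Without replicate 2 they had 0.07 (adjusted p = 0.615), -0.08 (adjusted p = 0.329) and -0.05 (adjusted p = 0.752), so the sign of Psmb6 and Psmb7 turned.

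**Figure D4:**
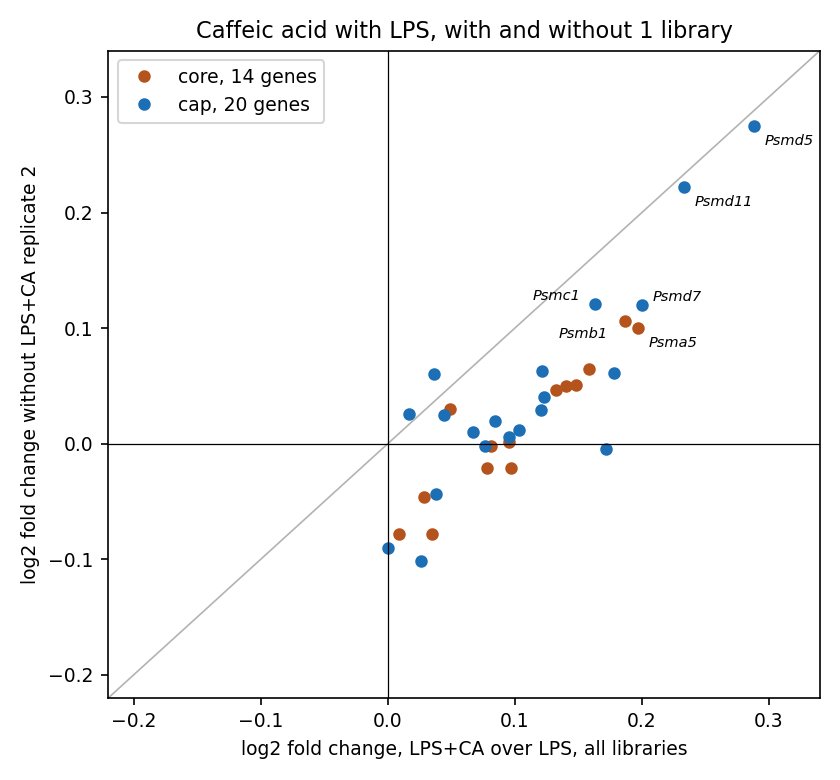
Log2 fold change of each member in LPS+CA over LPS with all libraries (horizontal) and without LPS+CA replicate 2 (vertical). Most points lie below the diagonal, and Psmd5 and Psmd11 stay near it at 0.28 and 0.22 on the vertical axis.

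In LPS+CGA compared with LPS, no member was called by edgeR, where 0.724% of all genes were, 0.0679% higher and 0.657% lower. In 2 members LPS+CGA lay wholly above LPS and in 10 wholly below, where 8.22% and 11% of all genes did so. At an unadjusted p under 0.05 there were 4 members, 1 higher and 3 lower, where 10.3% of all genes had one. DESeq2 called 0 members and 3.04% of all genes. The log2 fold changes ran from -0.13 to 0.10, and no bound of a member's 95% interval lay farther than 0.25 from 0. Psmb5 had 128, 131 and 132 CPM in LPS+CGA and 130.5, 130.2 and 133 CPM in LPS (-0.01, 95% interval -0.14 to 0.12). Psmb6 had -0.12 (adjusted p = 0.48) and Psmb7 -0.13 (adjusted p = 0.424).

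In LPS+CACys compared with LPS, Psmd10 fell and no other member was called, where 14.3% of all genes were called, 8.51% higher and 5.75% lower. In 1 member LPS+CACys lay wholly above LPS and in 9 wholly below, where 17.1% and 15.1% of all genes did so. Psmd10 had 84.3, 86.3 and 82.6 CPM in LPS+CACys, against 102, 109 and 109.5 CPM in LPS and 29.9, 30.1 and 28.1 CPM in Control. The log2 fold change over LPS was -0.34 (SE 0.06, adjusted p = 0.000105), and it was called in all 14 alternatives. Psmb5 had 116, 118 and 133 CPM in LPS+CACys and 130.5, 130.2 and 133 CPM in LPS (-0.10, adjusted p = 0.337). Psmb6 had -0.14 (adjusted p = 0.119) and Psmb7 -0.13 (adjusted p = 0.148). All 3 were below 0 without passing the test. An unadjusted p under 0.05 was found for 7 members, where 26.4% of all genes had one.

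In LPS+CGACys compared with LPS, Psma6 rose and Psmd10, Psmc3, Psmc5, Psmb6 and Psmd2 fell, where 29.1% of all genes were called, 16.1% higher and 13% lower. In 4 members LPS+CGACys lay wholly above LPS and in 12 wholly below, where 23.5% and 20.7% of all genes did so. Psmd10 had 83.3, 84.0 and 84.7 CPM in LPS+CGACys, against 102, 109 and 109.5 CPM in LPS (-0.35, SE 0.06, adjusted p = 2.83e-05). Psma6 had 296, 296 and 302 CPM in LPS+CGACys, against 258, 259.9 and 253 CPM in LPS (0.21, SE 0.05, adjusted p = 0.00195). Psma6 was thus above LPS, which was itself above Control.

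Both ATPase genes that fell were lower than every LPS library. Psmc3 had 114.4, 111 and 114.3 CPM in LPS+CGACys, against 132, 137 and 133 CPM in LPS (-0.24, SE 0.05, adjusted p = 0.000341). Its LPS+CGACys values were also below the 126 to 129.6 CPM of Control. Psmc5 had 175, 183 and 185 CPM in LPS+CGACys, against 203, 204 and 208 CPM in LPS (-0.18, SE 0.05, adjusted p = 0.0102), and the call was lost without LPS+CGACys replicate 1 (adjusted p = 0.0583). All 6 ATPase genes had log2 fold changes below 0, with a median of -0.12. Psmd2, a large subunit of the cap's base, fell by 0.11 on the log2 scale (adjusted p = 0.0408). Its call was lost without LPS replicate 2 or 3, or any 1 of the LPS+CGACys libraries. In each of those fits 3 members were lower, where 10 to 10.8% of all genes were.

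Of the catalytic genes, Psmb6 had 381, 353 and 369 CPM in LPS+CGACys, against 408, 419 and 405 CPM in LPS (-0.16, SE 0.06, adjusted p = 0.0418). That call was lost when LPS replicate 1, 2 or 3 or LPS+CGACys replicate 2 or 3 was left out, with adjusted p-values up to 0.169. Psmb5 had -0.10 (adjusted p = 0.243) and Psmb7 -0.10 (adjusted p = 0.241). A model of only LPS+CGACys and LPS called 13 members, 12 of them lower, where 35.9% of all genes were called and 18.5% lower. Library totals alone called 10, 9 of them lower, where 30.3% of all genes were called and 16.6% lower.

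**Figure D5:**
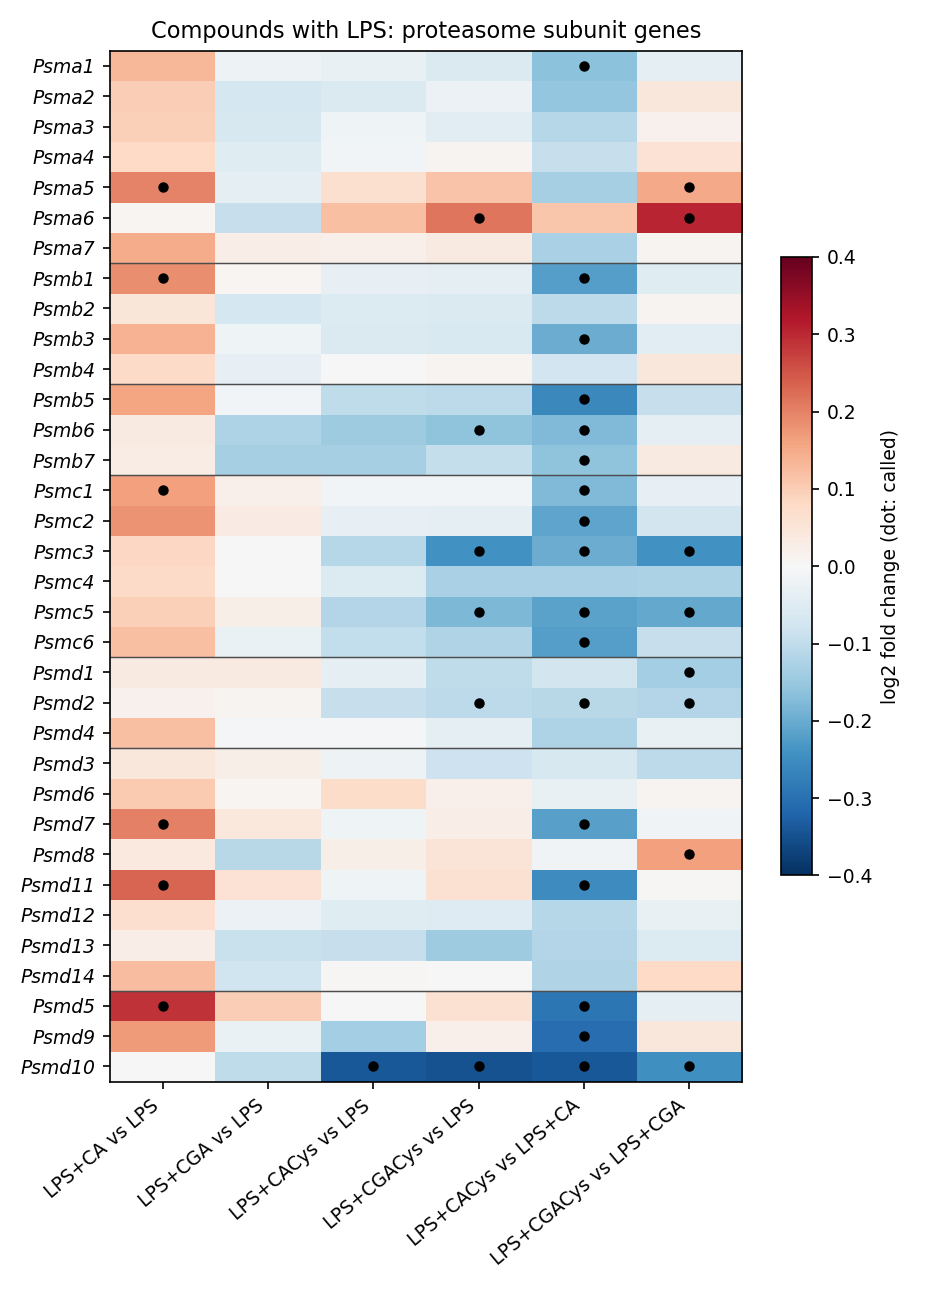
Log2 fold change of every member in 6 compound comparisons, as colour from blue (lower in the first-named group) to red (higher), with a dot on each called member. Psmd10 is lower with both adducts, Psma6 higher with CGACys, and the column of LPS+CACys over LPS+CA holds most of the lower calls.

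The compounds were also compared with one another at the same dose and time: each adduct against its parent acid, the acids with each other, and the adducts with each other. In LPS+CACys compared with LPS+CA, 17 members were lower and none higher, where 27.1% of all genes were called, 15.2% higher and 11.9% lower. Over LPS, the members' median log2 fold change was -0.03 in LPS+CACys and 0.10 in LPS+CA (0.025 without LPS+CA replicate 2). In 0 members LPS+CACys lay wholly above LPS+CA and in 16 wholly below, where 19% and 16.5% of all genes did so. The 17 included the 3 catalytic genes, 5 of 6 ATPase genes and the 3 chaperone genes. Without LPS+CA replicate 2, 11 members fell and Psma6 rose (0.20, adjusted p = 0.000187), where 23% of all genes were called and 9.73% lower. The 11 included 1 of 3 catalytic genes, 4 of 6 ATPase genes and 2 of 3 chaperone genes. The calls of Psmb6 (-0.063, adjusted p = 0.295) and Psmb7 (-0.085, adjusted p = 0.272) were lost without that library. LPS+CACys then lay wholly above LPS+CA in 3 members and wholly below in 17, where 23.9% and 22.8% of all genes did so. Without LPS+CACys replicate 1 there were 11 lower, where 8.43% of all genes were lower, and without LPS+CA replicate 3 there were 29, where 14% were. A model of only LPS+CACys and LPS+CA called 4 members lower, where 5.96% of all genes were lower, and library totals alone called 26 lower, where 17% were.

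The 5 members that fell most are given by library. Psmd10 had 84.3, 86.3 and 82.6 CPM in LPS+CACys and 100.0, 119 and 101 CPM in LPS+CA, with a log2 fold change of -0.34 (SE 0.06, adjusted p = 3.28e-05), and -0.25 (adjusted p = 0.000105) without LPS+CA replicate 2. Psmd5 had 83.1, 85.7 and 85.7 CPM in LPS+CACys and 107, 106 and 98.2 CPM in LPS+CA, with -0.29 (SE 0.05, adjusted p = 2.65e-05), and -0.28 (adjusted p = 2.96e-05) without it. Psmd11 had 312, 305 and 320.4 CPM in LPS+CACys and 381, 377 and 357 CPM in LPS+CA, with -0.25 (SE 0.05, adjusted p = 0.000129), and -0.24 (adjusted p = 5.58e-05) without it. None of these 3 pairs of groups overlapped. Psmd9 had 17.0, 17.1 and 16.4 CPM in LPS+CACys and 19.1, 25.3 and 17.7 CPM in LPS+CA, with -0.31 (SE 0.10, adjusted p = 0.0188), and -0.13 (adjusted p = 0.337) without it. Psmb5 had 116, 118 and 133 CPM in LPS+CACys and 143, 164 and 131.5 CPM in LPS+CA, where the groups overlapped, with -0.26 (SE 0.06, adjusted p = 0.00272), and -0.17 (adjusted p = 0.0193) without it. The edgeR model of only LPS+CACys and LPS+CA ended the calls of Psmd9 (adjusted p = 0.122) and Psmb5 (adjusted p = 0.0554).

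In LPS+CGACys compared with LPS+CGA, 3 members rose and 5 fell, where 33.1% of all genes were called, 18.2% higher and 14.9% lower. In 4 members LPS+CGACys lay wholly above LPS+CGA and in 8 wholly below, where 25.2% and 22.7% of all genes did so. Without LPS+CGA replicate 1 there were 2 higher and 3 lower, where 15.5% of all genes were higher and 11.7% lower. Psma6 had 296, 296 and 302 CPM in LPS+CGACys and 243, 234 and 247 CPM in LPS+CGA (0.31, SE 0.05, adjusted p = 2.51e-05). Psmd8, a lid gene, had 449.5, 439.9 and 449.6 CPM in LPS+CGACys and 403, 388 and 404 CPM in LPS+CGA (0.16, SE 0.05, adjusted p = 0.00984), and Psma5 also rose (0.15, adjusted p = 0.0343). The Psmd8 call was lost without LPS+CGA replicate 2 (adjusted p = 0.0538). That of Psma5 was lost without any 1 of the LPS+CGA libraries, and without LPS+CGACys replicate 1 or 3. Upper-quartile factors ended the Psma5 call, with 2 members higher and 6 lower, where 17.5% of all genes were higher and 15.8% lower. Library totals alone ended those of Psma5 and Psmd8, with 1 higher and 8 lower, where 14.2% of all genes were higher and 22.3% lower.

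Psmd10 had 83.3, 84.0 and 84.7 CPM in LPS+CGACys and 98.3, 98.0 and 102 CPM in LPS+CGA (-0.25, SE 0.06, adjusted p = 0.00113). Psmc3 had 114.4, 111 and 114.3 CPM in LPS+CGACys and 137, 129.9 and 136 CPM in LPS+CGA (-0.24, SE 0.05, adjusted p = 0.000242). Psmc5 had 175, 183 and 185 CPM in LPS+CGACys and 206, 215 and 204 CPM in LPS+CGA (-0.20, SE 0.05, adjusted p = 0.0034). Psmd1 and Psmd2, the large scaffold genes of the cap's base, fell by 0.14 and 0.12. Both of these calls were lost without LPS+CGA replicate 1.

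In LPS+CGA compared with LPS+CA, Psma5 (-0.24, adjusted p = 0.0283), Psmd14 (-0.20, adjusted p = 0.0496) and Psmd5 (-0.19, adjusted p = 0.0384) fell, where 1.38% of all genes were called, 0.634% higher and 0.747% lower. In 0 members LPS+CGA lay wholly above LPS+CA and in 12 wholly below, where 8.13% and 8.57% of all genes did so. The counts were 0 and 12 without LPS+CA replicate 2 too, where 12.2% and 12.8% of all genes did so. None was called without LPS+CA replicate 2 or without any 1 of the LPS+CGA libraries, where 0.332 to 0.642% of all genes were. Without LPS+CA replicate 1 there were 5, where 3.31% of all genes were called. Without LPS+CA replicate 3 there were 19, where 7.83% were. Psma5 had 216, 213 and 214 CPM in LPS+CGA and 246, 285 and 226 CPM in LPS+CA. Psmd14 had 134, 129.9 and 130.0 CPM in LPS+CGA and 145, 168 and 141 CPM in LPS+CA. Psmd5 had 91.9, 89.6 and 91.3 CPM in LPS+CGA and 107, 106 and 98.2 CPM in LPS+CA. Psmb5 had 128, 131 and 132 CPM in LPS+CGA and 143, 164 and 131.5 CPM in LPS+CA (-0.17, adjusted p = 0.162).

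In LPS+CGACys compared with LPS+CACys, no member was called by edgeR, where 1.8% of all genes were, 1.02% higher and 0.785% lower. In 4 members LPS+CGACys lay wholly above LPS+CACys and in 4 wholly below, where 11.2% and 10.4% of all genes did so. By the same tool 1 member had an unadjusted p under 0.05, where 14.3% of all genes had one. DESeq2 called 0 members and 3.75% of all genes. Psmb5 had 119, 118 and 129.7 CPM in LPS+CGACys and 116, 118 and 133 CPM in LPS+CACys (-0.003, 95% interval -0.13 to 0.13). No bound of a member's interval lay farther than 0.36 from 0.

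The difference between both adduct effects was tested as an interaction, the log2 change of LPS+CGACys over LPS+CGA minus that of LPS+CACys over LPS+CA. It was called for Psmd11 (0.25, SE 0.07, adjusted p = 0.0344) and Psmd5 (0.25, SE 0.07, adjusted p = 0.0428), where 2.18% of all genes were called and 1.09% higher. Psmd11 had 324, 329 and 338 CPM in LPS+CGACys and 342, 325 and 321 CPM in LPS+CGA, beside 312, 305 and 320.4 CPM in LPS+CACys and 381, 377 and 357 CPM in LPS+CA. Psmd5 had 86.5, 89.9 and 89.2 CPM in LPS+CGACys and 91.9, 89.6 and 91.3 CPM in LPS+CGA, beside 83.1, 85.7 and 85.7 CPM in LPS+CACys and 107, 106 and 98.2 CPM in LPS+CA. Without LPS+CA replicate 2 the interaction was 0.24 for both (adjusted p = 0.0148 for Psmd11 and 0.0375 for Psmd5). Neither was called without LPS+CGA replicate 2 or 3, LPS+CACys replicate 1 or 2, or any 1 of the LPS+CGACys libraries. Without LPS+CA replicate 1 neither was called (adjusted p = 0.0559 for Psmd11 and 0.0725 for Psmd5). The 1 member called there was another gene, where 3.23% of all genes were called. Leaving out LPS+CGA replicate 1 or LPS+CACys replicate 3 ended only the call of Psmd5. Leaving out LPS+CA replicate 3 gave 5 members, where 3.82% of all genes were called.

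The inducible catalytic genes were set beside the subunits they replace. The ratio of Psmb9 to Psmb6 was 0.375, 0.371 and 0.339 in LPS+CGACys, 0.288, 0.290 and 0.254 in LPS+CACys, 0.138, 0.151 and 0.128 in LPS+CGA, and 0.120, 0.121 and 0.122 in LPS+CA. It was 0.159, 0.184 and 0.137 in LPS and 0.0868, 0.0828 and 0.0947 in Control. The log2 ratio differed by 1.19 in LPS+CGACys, 0.80 in LPS+CACys, -0.19 in LPS+CGA and -0.39 in LPS+CA over LPS, and by 0.85 in LPS over Control. An exact two-sided permutation test gave p = 0.1, the smallest that 3 against 3 allows, in each of these except LPS+CGA, where p = 0.3. The log2 ratio of Psmb8 to Psmb5 differed by 0.63 in LPS+CGACys, 0.34 in LPS+CACys, -0.29 in LPS+CGA and -0.47 in LPS+CA over LPS, and by 1.02 in LPS over Control, with an exact p of 0.2 in LPS+CACys and 0.1 in the others. That of Psmb10 to Psmb7 differed by 0.62 in LPS+CGACys, 0.42 in LPS+CACys, -0.17 in LPS+CGA and -0.35 in LPS+CA over LPS, and by 1.64 in LPS over Control, with an exact p of 0.4 in LPS+CGA, 0.2 in LPS+CACys and 0.1 in the others. Each ratio mixes genes of unlike length, so only its change between groups can be read.

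The list of proteasome-related genes outside the members was taken from general knowledge. In LPS compared with Control, the inducible Psmb8, Psmb9 and Psmb10 rose by 1.53, 1.79 and 2.09. All 4 activator genes rose, led by Psme2 (2.16) and Psme1 (1.14), which form a cap that opens the barrel without ubiquitin. Of 5 core assembly factor genes 2 rose, and of 5 other cap-associated genes that were tested 3 rose and Uchl5 fell (-0.25). Paaf1, listed with them, had too few counts to test. In the list of genes that control proteasome transcription or nuclear entry 5 of 6 rose, led by Nfe2l1 (1.51), which encodes the factor that raises proteasome genes when proteolysis falls short, and Ddi2, the protease that activates it, fell (-0.77). In the list of ubiquitin genes and shuttles 7 of 9 rose and Ubqln4 fell (-0.27). With library totals alone 2 activators, 0 core assembly factors, 1 other cap-associated gene and 5 ubiquitin genes rose, Sem1 and Ubqln2 fell as well, and the counts of the inducible catalytic genes and of the control genes were as given.

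In LPS+CGACys compared with LPS, Psmb8, Psmb9 and Psmb10 rose by 0.52, 1.01 and 0.52, Psme1 and Psme2 by 0.19 and 0.23, and Nfe2l1 by 0.17. The cap's ubiquitin receptor gene Adrm1 fell (-0.19, adjusted p = 0.00435), as did Vcp (-0.17), the ATPase that extracts ubiquitylated proteins. By list, 2 of 4 activators rose, 0 of 5 core assembly factors were called, 1 of 5 other cap-associated genes rose (Psmf1, 0.29) and 1 fell. Of the 6 control genes 2 rose and 1 fell. Among the ubiquitin genes and shuttles, Uba6 rose (0.25) and Ubqln4 fell (-0.37). In LPS+CACys compared with LPS, Psmb9 rose by 0.65, Psmb8 by 0.24 and Uba6 by 0.22, Ubqln4 fell by 0.23, and no gene of the other lists was called. The Psmb8 call (adjusted p = 0.0498) was lost with RLE factors (0.057) and upper-quartile factors (0.0624). In LPS+CA compared with LPS, Psmb8 and Psmb9 fell by 0.31 and 0.37, Psme1 fell by 0.20, and no gene of the other lists was called. Upper-quartile factors ended the calls of Psmb9 (adjusted p = 0.0604) and Psme1 (0.0502). Without LPS+CA replicate 2, Psmb8, Psmb9 and Psme1 fell by 0.40, 0.49 and 0.26, Psme2 fell by 0.28 (adjusted p = 6.63e-05), and 1 of the 6 control genes fell. In LPS+CGA compared with LPS, Psme1 and Psme2 fell by 0.27 and 0.26, and no other gene of these lists was called. The Psme2 call (adjusted p = 0.0359) was lost with library totals alone (0.0579).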

How the data were processed

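RNA was measured in RAW264.7 cells, 3 libraries for each of 6 groups. The values deposited by the authors were raw counts per Ensembl gene. The submitters' processing notes name mm10, HISAT and DESeq2 without versions; the counting program, strand setting and annotation release are not given in the sources used here. No label states that the 3 replicates of a group came from separate cultures; the p-values then reflect only the spread between these samples, which may be technical.

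From the counts, 1 model over 18 libraries was fitted in R 4.3.3 with edgeR 4.0.16 (TMM factors, filterByExpr, robust quasi-likelihood F test, Benjamini-Hochberg adjustment over 13251 genes, threshold 0.05), with 10 comparisons. SE is the absolute log2 fold change divided by the square root of F. CPM uses library totals times TMM factors. Alternatives were other factors, other filters, a replicate block, only the groups compared, DESeq2 1.42.0 and leaving out each library; library totals alone and the counts without LPS+CA replicate 2 were added after the data were seen. The fit was tested on simulated data, with the same spread in every group. The planted changes were larger than that of any member called in a compound comparison. The simulation therefore does not show how well smaller changes, or a group with a wider spread, are handled. Positions are from a RefSeq table of GRCm38.p6, which matched 34 of 34 members. No column was left without a sample.

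The members, roles and lists were chosen with earlier results of these data known. By the naming rule, the 5 called members with the largest change in a comparison, or the called ones and Psmb5 where there were fewer, get library values, and the 3 catalytic genes are given in each main comparison. The rule also named other members by role. Values of Psma1, Psmc3 in LPS, and the next-highest examples were chosen after they were seen. All 34 members passed the filter. The result of a single gene of the ubiquitin list is not reported here; the gene stayed in the fit and in the list's counts.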

Additional observations from a re-analysis of the deposited data

Results flagged for a closer look

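The interaction term of the edgeR fit, the difference between both adduct effects, was called for 2 members. Mean CPM of Psmd11 was 330 in LPS+CGACys, 313 in LPS+CACys, 329 in LPS+CGA, 372 in LPS+CA and 316 in LPS. The means of Psmd5 were 88.5, 84.8, 90.95, 103.6 and 84.9 CPM in the same order. In both genes LPS+CA had the highest of these means. For Psmd11 the log2 change of LPS+CGACys over LPS+CGA exceeded that of LPS+CACys over LPS+CA by 0.25 (adjusted p = 0.0344; adjusted p from 0.00545 to 0.11 over 20 alternatives, past the threshold in 10). For Psmd5 the excess was also 0.25 (adjusted p = 0.0428; adjusted p from 0.0121 to 0.115 over 20 alternatives, past the threshold in 6). Both calls were lost in the model of only the groups compared and with library totals alone.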

How the results depend on the processing

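Over the alternative settings, library totals alone aside, the results for members given by the naming rule kept their side of the threshold in 557 cases, lost a call in 66 and gained one in 6, and no called one changed sign. Outside that rule, Psmb3, Psmc4 and Psmd2 changed sign in LPS over Control with library totals alone. In the count of called members, LPS+CA over LPS gave 2 in the model of only the groups compared (3.52%), against 6 (7.72%). The share of all genes called in the same fit follows each count in brackets. LPS+CACys over LPS gave 2 with no filter (6.65%), 3 with only the groups compared (17.6%) and 2 with DESeq2 (15.6%), against 1 (14.3%). LPS+CGACys over LPS gave 13 with only the groups compared (35.9%) and 10 with library totals alone (30.3%), against 6 (29.1%). LPS+CACys over LPS+CA gave 4 with only the groups compared (17.2%) and 26 with library totals alone (29.9%), against 17 (27.1%). LPS+CGA over LPS+CA gave 0 with only the groups compared (0.0239%) and 5 with DESeq2 (7.67%), against 3 (1.38%). The interaction gave 1 with the replicate block (2.08%), 0 with only the groups compared (1.28%) and 0 with library totals alone (2.29%), against 2 (2.18%). The core minus cap difference as the log2 ratio of summed counts was 0.003 in LPS over Control and 0.041 in LPS+CGACys over LPS. The cause was not tested.

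Leaving out 1 library at a time, 29 to 30 members were called in LPS over Control, where 57 to 57.8% of all genes were. Over LPS they were 2 to 12 in LPS+CA (3.98 to 10.6% of all genes) and 0 to 0 in LPS+CGA (0 to 1.71%). With the adducts they were 1 to 1 in LPS+CACys (9.03 to 12.5%) and 4 to 6 in LPS+CGACys (22.7 to 24.5%) over LPS. They were 11 to 29 in LPS+CACys over LPS+CA (20.2 to 29.3% of all genes) and 5 to 8 in LPS+CGACys over LPS+CGA (26.8 to 28.2%). They were 0 to 19 in LPS+CGA over LPS+CA (0.332 to 7.83%) and 0 to 0 in LPS+CGACys over LPS+CACys (0.643 to 1.46%). In the interaction they were 0 to 5 (1.2 to 3.82%). Leaving out LPS+CGA replicate 2 or 3, LPS+CACys replicate 1 or 2 or any LPS+CGACys library gave 0 there. The core minus cap difference was 0.024 to 0.102 in LPS over Control, and over LPS it was -0.021 to 0.022 in LPS+CA, -0.068 to -0.025 in LPS+CGA, -0.014 to 0.034 in LPS+CACys and -0.006 to 0.021 in LPS+CGACys. LPS+CACys over LPS gave 0.034 without LPS+CACys replicate 1. LPS+CACys over LPS+CA gave 11 members called without LPS+CACys replicate 1 (20.2% of all genes) and 29 without LPS+CA replicate 3 (29.3%).

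Same-numbered libraries did not deviate together: 2 of 45 pairs had a correlation over 0.1, from -0.15 to 0.13. The replicate block ended the member calls of Psmc1 in LPS+CA over LPS (adjusted p = 0.06), Psmb6 in LPS+CGACys over LPS (0.0537), Psmb7 in LPS+CACys over LPS+CA (0.0535), Psmd14 in LPS+CGA over LPS+CA (0.0583) and Psmd5 in the interaction (0.0573), and added none.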
